A study of Arabidopsis thaliana with 27 samples.

Results

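YUC4, GH3.3 and UGT84B1 are 3 Arabidopsis thaliana genes that make or inactivate the hormone auxin, and their levels are described here across dissected embryo tissues. They were taken by name (loci AT5G11320, AT2G23170 and AT2G23260), each through its only probe set on the Affymetrix ATH1 array, and they are 3 of 13356 genes with a probe set of their own in the annotation used. RNA of laser-captured tissues from embryos of the Col-0 accession (stock N1092), all on compost in a growth room with no other genotype or treatment, was hybridised to 27 arrays. 25 arrays fell into 9 groups: globular apical and globular basal, heart cotyledon and heart root, torpedo apical, torpedo basal and torpedo meristem with 3 arrays each, and torpedo cotyledon and torpedo root with 2 each (replicates 1 and 3). The arrays titled torpedo-cotyledon Rep2 and torpedo-root Rep2 carry tissue descriptions that name the opposite tissue, and they entered no comparison. Globular apical 1 has another growth description than the rest. Nothing in the labels says which captures came from separate plants. The spread that p-values rest on may therefore be technical, and the small number of arrays limits every difference. In bulk tissue of this kind fewer cells of a type and less RNA per cell cannot be told apart.

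Auxin (indole-3-acetic acid) is made from tryptophan by an aminotransferase step followed by flavin monooxygenases of the YUCCA family, of which YUC4 is one. Its active pool is lowered by GH3 enzymes such as GH3.3, which join it to amino acids, and by glucosyltransferases such as UGT84B1, which join it to glucose. GH3.3 is also one of the genes that auxin itself induces, and in the embryo auxin maxima mark the cotyledon tips and the root pole. YUC4 lies on chromosome 5 and the other members on chromosome 2, where 8 protein-coding genes separate GH3.3 from UGT84B1 in the RefSeq annotation of TAIR10.1.

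The arrays differed in quality. Each array's correlation with the others had a median of 0.295 to 0.626, and this was under 0.4 on heart cotyledon 2, torpedo meristem 1 and both torpedo root arrays. Marker genes were checked as summed intensities. For the root pole 2 of 9 listed markers were measured, BBM and JKD, and they summed to 516 to 679 in heart root against 15.8 to 94.0 in heart cotyledon, and to 148 to 656 in torpedo basal against 9.24 to 23.2 in torpedo apical. In torpedo root they summed to only 20.3 to 32.2, so the defining root pole markers measured were near their low end in captures with that label. For the shoot meristem, the measured 2 of 7 markers (CLV3 and LAS) summed to 261 to 787 in torpedo meristem against 50.6 to 90.9 in torpedo apical and basal captures. Other captures overlapped the meristem range: torpedo root reached 348, torpedo cotyledon 265.7, globular apical 372 and globular basal 322.5. The measured 5 of 12 cotyledon and lateral organ markers summed to 881 to 1554 in torpedo apical against 105 to 319 in torpedo basal. They did not separate torpedo cotyledon (368 to 889) from torpedo root (371 to 462).

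Over the 9 tissues, GH3.3 was the only member called in a test for any difference among them. A moderated F test with limma gave it an adjusted p of 0.00321 (F = 9.30), whereas UGT84B1 was at 0.0825 (F = 4.17) and YUC4 at 0.250 (F = 2.17). This F test called 262 of 20890 probe sets, or 1.25%. Its unadjusted p was 0.00253 for UGT84B1 and 0.0645 for YUC4, so a missing call does not show an even level. Each gene had its own set of tissues with high signal, and the plot of intensity by tissue shows all 25 arrays. Intensity here is the deposited MAS5 signal on a linear scale, where the trimmed mean of every array is about 100.

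**Figure D1:**
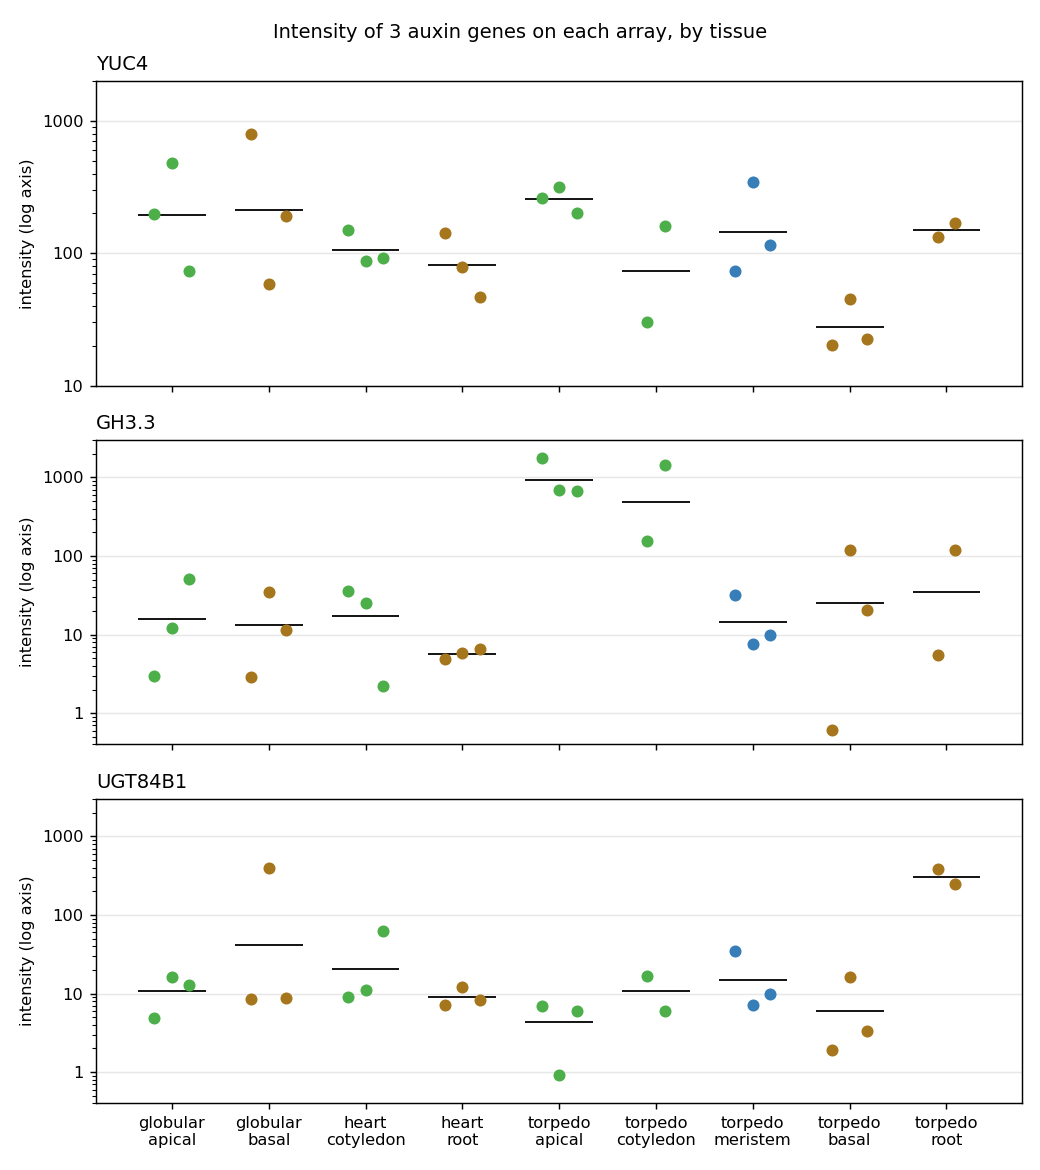
Intensity (log axis) of YUC4, GH3.3 and UGT84B1 on each of 25 arrays, by tissue; a point is 1 array, the line is the mean of log2(intensity + 10) turned back to intensity, and colours mark upper tissues (green), lower tissues (brown) and the meristem (blue). GH3.3 sits at 155 to 1751 in torpedo apical and torpedo cotyledon captures and at or below 120.3 everywhere else, whereas UGT84B1 reaches 248 or more on both torpedo root arrays and on 1 globular basal array.

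GH3.3, the auxin-amido synthetase, was high in the upper torpedo embryo and lower in the other tissues. The torpedo apical arrays gave 1751, 686 and 668, a mean of 1035 ± 620 (SD, n = 3). The 2 torpedo cotyledon arrays gave 155 and 1456, a mean of 806 ± 920 (n = 2). On the torpedo apical arrays GH3.3 was brighter than 95.6% to 98.4% of all probe sets. Both tissues lay above every other group, since no other array with a group exceeded 120.3. The share of all probe sets with such a pattern was not counted.

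The remaining torpedo tissues were lower for GH3.3, and most of their arrays were dim. Torpedo basal arrays gave 0.604, 120 and 20.8, torpedo root arrays 5.50 and 120, and torpedo meristem arrays 31.7, 7.55 and 9.81. Torpedo basal 5 and torpedo root 3, both at 120, were brighter than 75.7% and 65.4% of probe sets, against 86.6% for torpedo cotyledon 1. The meristem arrays lay within the range of the lower torpedo captures. Earlier stages did not exceed 51.0. Globular apical arrays ran from 3.00 to 51.0, globular basal from 2.90 to 34.5, heart cotyledon from 2.20 to 35.7 and heart root from 4.90 to 6.60. Ordered by mean log2 level, torpedo apical came first and torpedo cotyledon second, with overlapping arrays. A step of 3.45 on the log2 scale then separated torpedo cotyledon from torpedo root, without overlap. Each of the 6 neighbouring pairs from torpedo root down to heart root overlapped, so no order between neighbours was resolved among the 7 lower groups. Groups further apart in this order can still be separate. The torpedo meristem arrays (7.55 to 31.7) all lay above the heart root arrays (4.90 to 6.60), both at dim levels. This pair was not tested, and the share of all probe sets that did so was not counted. It also sets unrounded files against files with 1 decimal.

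The torpedo apical captures were compared with the basal captures, the meristem and the preceding stage, and GH3.3 was called in each of these comparisons. Against torpedo basal its log2 difference was 4.75 (SE 0.93, adjusted p = 0.0485), in a comparison that called 0.091% of probe sets, and its groups did not overlap, as for 4.94% of probe sets in that direction. Torpedo meristem was lower than torpedo apical by a log2 difference of -5.27 (SE 0.93, adjusted p = 0.0199) (0.211% called and 9.34% without overlap in that direction). Torpedo apical was higher than heart cotyledon by 5.12 (SE 0.93, adjusted p = 0.0227), where 0.067% were called. These 3 comparisons share the torpedo apical arrays, so they are not independent of one another. The torpedo apical files are unrounded and the heart cotyledon files have 1 decimal. Stage and form of deposit can therefore not be told apart in that comparison. Differences are on the scale of log2(intensity + 10), which understates changes of dim probe sets.

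The call against basal lies near the threshold. It held in 20 of 38 alternative runs, with adjusted p-values from 6.44e-05 to 0.337 and differences from 3.54 to 5.84, and it ended when 1 of 12 arrays was left out: torpedo apical 4, 5 or 6, torpedo basal 4 or 6, any heart root array, globular apical 1 or 2, or globular basal 2 or 3. The call against meristem held in 33 of 37 runs and ended only without torpedo apical 4 (-4.82, adjusted p = 0.212), 5 (0.0979) or 6 (0.0679), or when the arrays of contradictory labels were grouped by their tissue description (0.0659); over all 37 runs the adjusted p was 0.00304 to 0.212. The call against heart cotyledon held in 29 of 37 runs (adjusted p 0.0012 to 0.211) and ended without torpedo apical 4, 5 or 6 or heart cotyledon 2 or 3.

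The torpedo cotyledon arrays, which carry other replicate numbers and rounding than the apical ones, gave differences that were not called and rested on few arrays. Against torpedo root GH3.3 differed by 3.45 (SE 1.14, adjusted p = 0.215), with no overlap (10.4% of probe sets did so in that direction) and 0.00957% of probe sets called. It differed from heart cotyledon by 4.19 (SE 1.04, adjusted p = 0.226), where 0.0191% were called and 7.46% did not overlap in that direction; this pair, both deposited with 1 decimal, was chosen once the data had been seen. Against torpedo cotyledon the meristem, likewise compared after the data had been seen, was at -4.33 (SE 1.04, adjusted p = 0.174), where 0.0191% were called and 7.7% did not overlap.

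All 3 values moved with single arrays. The difference from torpedo root was 1.88 without torpedo cotyledon 3, 1.92 without torpedo root 1, 4.99 without torpedo root 3 and 5.03 without torpedo cotyledon 1. It fell to 0.27 (adjusted p = 0.983) when the arrays of contradictory labels were grouped by tissue description, and was 4.34 (adjusted p = 0.0330) when they were grouped by title. The difference from heart cotyledon was 2.61 to 5.76 and that of meristem from cotyledon -5.91 to -2.76 without torpedo cotyledon 3 or 1. The actin 3' to 5' log2 ratio, a sign of RNA quality, was 3.71 to 5.07 on torpedo apical, 2.39 to 4.64 on torpedo basal, -1.55 to 2.58 on meristem and -1.80 to 1.85 on heart cotyledon arrays. Its part in the differences from meristem and heart cotyledon was not tested.

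At the globular stage GH3.3 differed between apical and basal by 0.16 (SE 0.93, adjusted p = 1.00), in a comparison where limma called 0.0% of probe sets, with 561 at an unadjusted p under 0.05. At the heart stage cotyledon against root was at 0.78 (SE 0.93, adjusted p = 0.973), where 0.00957% were called. The upper-lower difference was thus 4.59 larger in torpedo than in globular embryos (SE 1.32, adjusted p = 1.00) and 3.97 larger than in heart embryos (SE 1.32, adjusted p = 0.912). Neither change passed over all probe sets, where 0.00479% and 0.0% were called, the latter with 927 at an unadjusted p under 0.05. With array weights the first reached an adjusted p of 0.0301 (0.0301 to 1.00 over 38 runs).

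**Figure D2:**
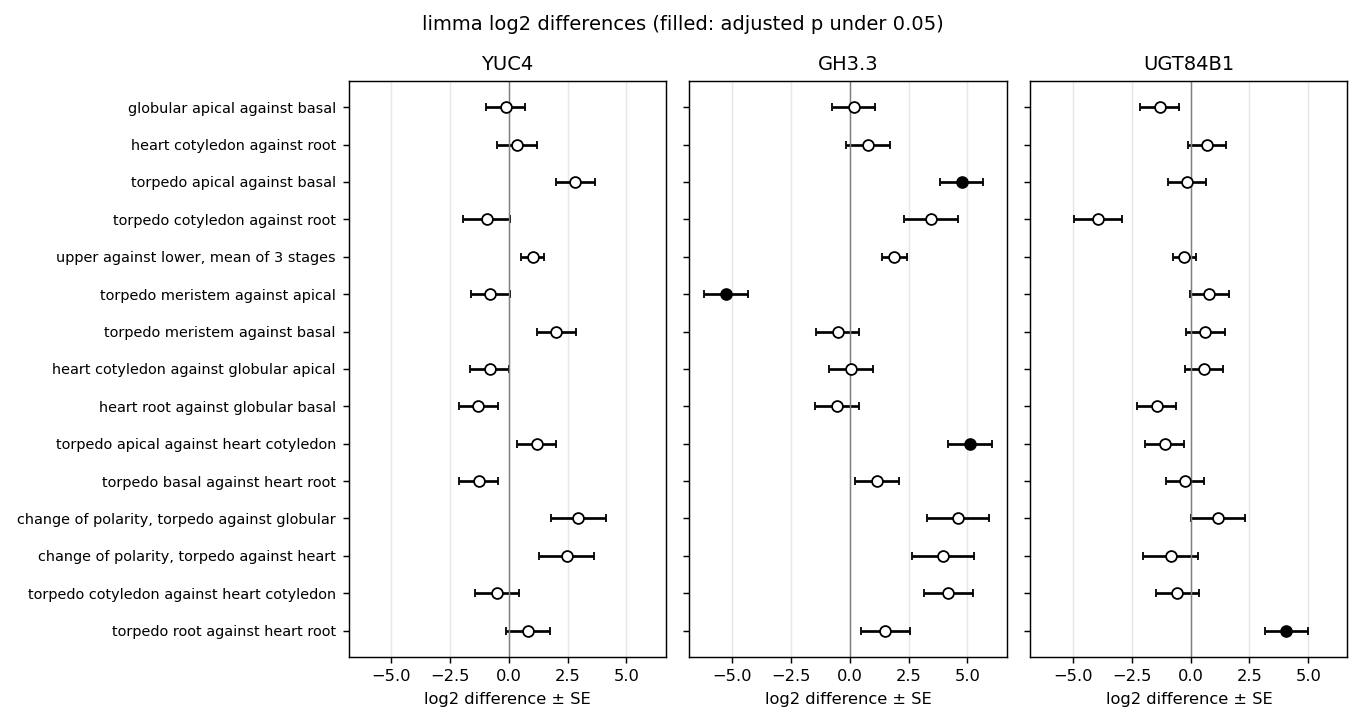
log2 differences of the 3 genes in 15 comparisons, with the first-named group minus the second (change of polarity is the change of the upper-lower difference); points are limma estimates, bars are 1 SE, and filled points have an adjusted p under 0.05. GH3.3 is filled at 4.75, -5.27 and 5.12, UGT84B1 at 4.06 for torpedo root against heart root, and YUC4 nowhere.

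YUC4, the auxin synthesis gene, was measured in nearly every tissue and reached its lowest level in the torpedo basal captures. Its intensity was 50 or more on 20 of 25 arrays, against 8 of 25 for GH3.3 and 4 of 25 for UGT84B1. Torpedo basal arrays gave 20.3, 45.3 and 22.4 (mean 29.3 ± 13.9, n = 3) and torpedo apical arrays 263, 317 and 203 (261 ± 56.9, n = 3). Torpedo apical was the highest group by mean log2 level, with the smallest SD of log2 levels (0.31) among the groups of 3 arrays, and its arrays lay above all basal arrays, as for 4.94% of probe sets in that direction.

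That difference between torpedo apical and basal was 2.82 on the log2 scale (SE 0.83), and with an adjusted p of 0.445 it did not pass over all probe sets. It was positive in all 38 alternative runs (1.97 to 3.18) and passed only with array weights (3.05, adjusted p = 0.0134; 0.0134 to 1.00 over the runs). Without the arrays of low correlation it was 2.82 (adjusted p = 0.458).

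In the torpedo meristem YUC4 was at 73.0, 342 and 115 (177 ± 145, n = 3), overlapping the apical arrays and above the basal ones. The meristem differed from basal by 2.03 (SE 0.83, adjusted p = 0.481), where 0.0144% of probe sets were called and 7.51% did not overlap in that direction. It differed from apical by -0.79 (SE 0.83, adjusted p = 0.574). For YUC4 the meristem arrays thus reached from below the apical range to above it, whereas for GH3.3 they lay within the range of the basal arrays.

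The other captures of the torpedo embryo gave a different picture for YUC4. Torpedo cotyledon arrays were at 30.3 and 160 and torpedo root arrays at 133 and 169, a difference of -0.95 (SE 1.02, adjusted p = 0.779), and the groups overlapped. The torpedo root arrays were thus not low for YUC4 as the torpedo basal arrays were. The torpedo root and torpedo basal captures also differed in the root pole markers and in array correlation given above. Hybridization controls were at 9406 and 71930 on torpedo root and at 388 to 791 on torpedo basal arrays. Actin 3' to 5' log2 ratios were -1.40 and -1.18 against 2.39 to 4.64. The torpedo root files have 1 decimal and the torpedo basal files are unrounded, so label and form of deposit cannot be told apart. The part of these measures in the contrast was not tested.

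YUC4 varied widely within the globular groups. Globular apical arrays gave 199, 478 and 72.9, and globular basal arrays 800, 58.5 and 192, a difference of -0.14 (SE 0.83, adjusted p = 1.00) that turned to 0.79 without globular basal 1. Heart cotyledon arrays gave 150, 86.8 and 92.1 and heart root arrays 142, 79.1 and 46.4, a difference of 0.35 (SE 0.83, adjusted p = 0.984). Both stages overlapped between their poles. From heart cotyledon to torpedo apical YUC4 was at 1.20 (SE 0.83, adjusted p = 0.418) and from heart root to torpedo basal at -1.27 (SE 0.83, adjusted p = 0.773), with 0.067% called in each; neither passed, and in both the arrays did not overlap, as for 8.44% and 6.93% of probe sets in those directions. The change of the upper-lower difference was 2.95 (SE 1.17, adjusted p = 1.00) against globular and 2.47 (SE 1.17, adjusted p = 0.912) against heart. In the order of mean log2 levels each of the 9 tissues overlapped with the next. The torpedo apical and basal files are unrounded and the heart files have 1 decimal. Stage and form of deposit can therefore not be told apart in the torpedo against heart differences.

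UGT84B1, the auxin glucosyltransferase, was near the bottom of the scale in most captures and bright on the torpedo root arrays. These gave 380 and 248 (mean 314 ± 92.8, n = 2), brighter than 97.2% and 88.5% of probe sets on their arrays. A globular basal array, replicate 2, gave 390, while the other globular basal arrays gave 8.40 and 8.90. Heart cotyledon 3 gave 63.0, and every other array with a group was at 34.6 or lower. The gene entered the test through these 4 arrays, so its passing the filter on low values rests on them.

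Torpedo cotyledon arrays gave 16.8 and 6.00 for UGT84B1, below both torpedo root arrays, as for 25.6% of probe sets in that direction. The difference of cotyledon from root was -3.94 (SE 1.004, adjusted p = 0.135) and remained negative in all 37 alternative runs (-4.79 to -2.14), passing only with a pseudocount of 50 (-2.55, adjusted p = 0.0412; 0.0412 to 0.773 over the runs). Against heart root, at 7.20, 12.2 and 8.20, torpedo root was higher by 4.06 (SE 0.92, adjusted p = 0.0394), in a comparison chosen after the data were seen. It called 0.507% of probe sets and left 27.7% without overlap in that direction, so a difference of this kind was common on these arrays. The call held in 19 of 37 runs, with adjusted p-values of 0.0109 to 0.479, and ended when 1 of 11 arrays was left out: either torpedo root array, any heart root or torpedo apical array, torpedo basal 4 or 6, or globular apical 2.

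Several measures of the torpedo root arrays are given beside this result, and not all of them were particular to these arrays. The torpedo root arrays had the median correlations 0.363 and 0.295 and hybridization controls of 9406 and 71930, against a median of 1571 over the 25 arrays. Their actin 3' to 5' log2 ratios were -1.40 and -1.18, against 0.44 to 1.49 on heart root and 1.08 to 1.80 on torpedo cotyledon arrays. The measured endosperm markers, 2 of 8 listed (AGL62 and IKU2), summed to 139 to 150 on them, against 37.9 to 78.5 in torpedo cotyledon, 8.52 to 51.3 in torpedo basal and 63.2 to 189 in heart root captures. The 1 measured seed coat marker of 7, BAN, was at 15.5 and 27.5 on them and at 5.10 to 9.20 in heart root. No measured marker was at 0. Torpedo cotyledon 3 also had high hybridization controls, at 31215, with UGT84B1 at 6.00. Heart cotyledon 2 had a median correlation of 0.355 with UGT84B1 at 11.1, and globular basal 2 had 0.626 with UGT84B1 at 390. The part of these measures in the UGT84B1 difference was not tested.

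Torpedo basal arrays, the other lower captures of the same stage, gave 1.93, 16.1 and 3.31 for UGT84B1, and torpedo apical arrays 6.99, 0.908 and 5.93. The basal and apical arrays overlapped and differed by -0.16 (SE 0.82, adjusted p = 0.999). High UGT84B1 was therefore seen under the label torpedo root and not under torpedo basal. These labels also differ in form of deposit, 1 decimal against unrounded, and the 2 cannot be told apart here. In the globular stage apical against basal was at -1.32 (SE 0.82, adjusted p = 1.00), and this turned to 0.15 without globular basal 2. That array also had the highest BBM level of the series, 2851, against 6.00 and 68.5 on the other globular basal arrays, whereas BBM was at 6.30 and 9.10 on the torpedo root arrays.

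Between meristem and apical captures UGT84B1 was at 0.79 (SE 0.82, adjusted p = 0.571), and between torpedo apical and heart cotyledon at -1.10 (SE 0.82, adjusted p = 0.450). Neither passed, although the arrays did not overlap, as for 24.5% and 20.4% of probe sets in those directions. The comparison with heart cotyledon also sets unrounded files against files with 1 decimal. Heart cotyledon gave 9.00, 11.1 and 63.0 and globular apical 4.90, 16.1 and 12.8, with no call between them (0.57, SE 0.82, adjusted p = 1.00). In the order of mean log2 levels torpedo root stood 2.61 above globular basal, but globular basal 2 reached past both torpedo root arrays, and every later neighbour overlapped as well.

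From globular to heart stage no member was called. In the upper captures the differences were -0.81 for YUC4, 0.059 for GH3.3 and 0.57 for UGT84B1, where 0.0527% of probe sets were called. In the lower captures they were -1.29, -0.56 and -1.44, with adjusted p-values of 0.797, 0.893 and 0.767, where 0.0191% were called. The arrays overlapped for all 3 genes in both.

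**Figure D3:**
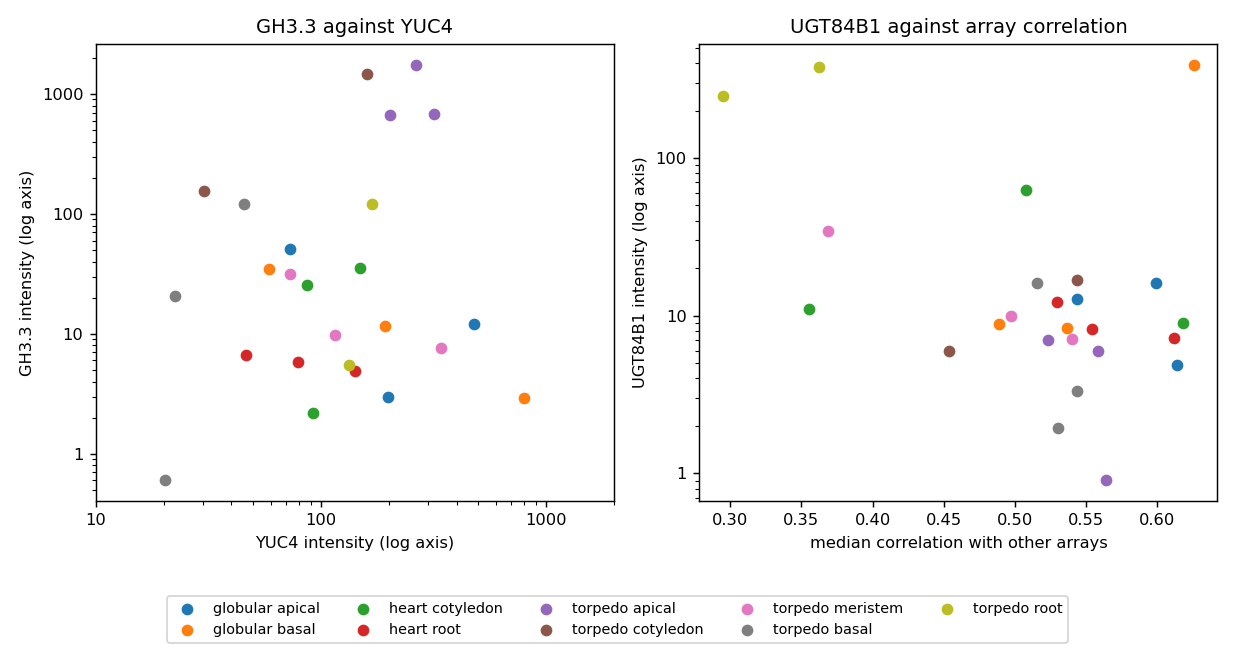
Left, GH3.3 against YUC4 intensity on 25 arrays (log axes); right, UGT84B1 intensity (log axis) against the median correlation of the array with the others; colours mark the 9 tissues. The arrays with GH3.3 at 668 or more have YUC4 between 160 and 317, whereas those with YUC4 at 342 or more have GH3.3 at 12.0 or lower, and UGT84B1 is at 380 and 248 on the torpedo root arrays, with correlations of 0.363 and 0.295, and at 390 on globular basal 2, with 0.626.

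The 3 genes did not follow one another across tissues. Over the 9 group means Pearson's r of log2 levels was 0.16 between YUC4 and GH3.3, 0.25 between YUC4 and UGT84B1 and -0.23 between GH3.3 and UGT84B1. Over the 25 arrays these were 0.14, -0.090 and -0.12, and over deviations from the group means -0.023, -0.56 and 0.19. These values describe arrays that share scaling and quality. Averaged over the 3 stages, upper against lower captures differed by 1.01 for YUC4 (SE 0.48, adjusted p = 1.00), 1.90 for GH3.3 (SE 0.54, adjusted p = 0.577) and -0.27 for UGT84B1 (SE 0.47, adjusted p = 1.00), where 0.00479% of probe sets were called.

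Other auxin genes were read from lists chosen for their roles, and few have a probe set with a single gene name. Of 14 auxin synthesis genes 4 were measured and 3 tested, YUC6 staying below the minimum. Between torpedo apical and basal 0 of 3 passed by limma, where 0.091% of all probe sets did. The median of the list was -0.28 and that of all probe sets -0.14. YUC2 differed by -0.28 (SE 0.77) and YUC11 by -0.43 (SE 0.89). YUC2 and YUC11 encode enzymes of the same step as YUC4. Their negative differences were each smaller than the SE, where that of YUC4 was 2.82 and not called. Whether YUC4 differs from these genes was not tested.

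Of 15 auxin inactivation genes 10 were measured and 9 tested, GH3.17 having reached 50 on only 1 array (77.5 on torpedo root 3). Between torpedo apical and basal 1 of 9 passed, GH3.3 (0.091% of all probe sets did), and the median was -0.33. The auxin-amido synthetase genes GH3.5 and GH3.9 were at -0.97 (SE 0.94) and -0.64 (SE 0.65), and UGT74D1, an auxin glucosyltransferase gene, at 0.16 (SE 0.59). GH3.1 was at -0.33 (SE 0.66). GH3.3 was the single GH3 gene among the 4 tested with a positive difference there. Between torpedo meristem and apical 1 of 9 passed, again GH3.3 and downward (0.211% of all did), while the list's median was 0.76 and that of all probe sets 0.54. Between torpedo apical and heart cotyledon 1 of 9 passed, GH3.3 (0.067% of all did), at a list median of -0.88 against -0.46 for all probe sets. Whether GH3.3 differs from its relatives was not tested.

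In torpedo cotyledon against root captures 0 of 9 inactivation genes passed, where 0.00957% of all probe sets did. Of all probe sets 2453 had an unadjusted p under 0.05 in limma. The list's median was -0.30 against -0.35 for all. UGT74D1 was at 35.4 and 40.0 in cotyledon and 134 and 179 in root captures, a difference of -1.79 (SE 0.73, adjusted p = 0.322). GH3.1, named after its values were seen, was at 7.20 and 8.50 against 147 and 20.0, a difference of -1.94 (SE 0.81, adjusted p = 0.336). Both were thus lower on every cotyledon array, as were 25.6% of all probe sets. GH3.9 went the other way, at 63.7 and 82.7 in cotyledon and 31.3 and 14.2 in root captures (1.39, SE 0.80, adjusted p = 0.536). UGT84B2, the gene next to UGT84B1 on the chromosome, was also named after its values were seen. It was at 26.1 and 6.90 in torpedo root and at 5.20 on globular basal 2, so the arrays that were bright for UGT84B1 were dim for its neighbour.

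**Figure D4:**
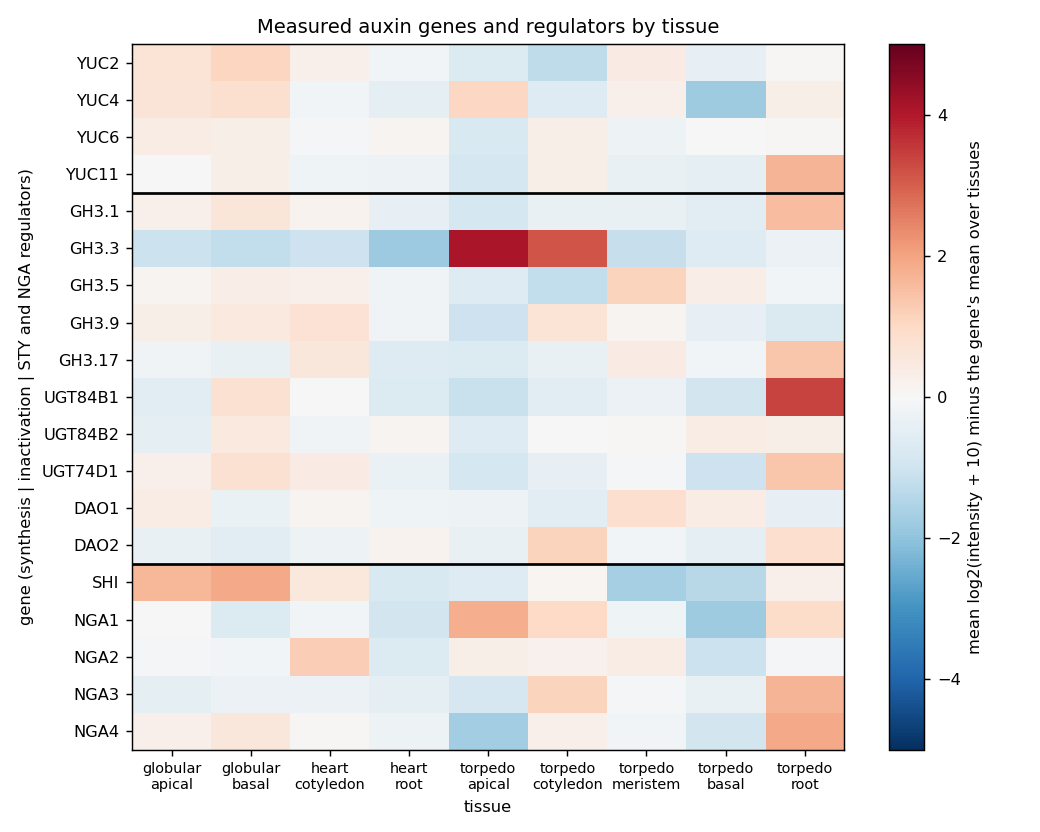
Mean log2(intensity + 10) of each measured gene in 9 tissues, minus the gene's own mean over the tissues; rows are auxin synthesis, auxin inactivation and STY and NGA genes, separated by black lines, red is above and blue below the gene's mean. The deepest red cells are GH3.3 in torpedo apical and torpedo cotyledon and UGT84B1 in torpedo root.

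Transcription factors of the STY and NGA families are known to act upstream of YUC4 in the gynoecium, and 5 of 8 listed regulators were measured and tested. 1 of 5 passed between torpedo apical and basal (0.091% of all probe sets did), the lateral organ growth gene NGA1, at 208, 190 and 197 in apical and 11.7, 9.80 and 1.94 in basal arrays (3.595, SE 0.73, adjusted p = 0.0485). The NGA1 call lies near the threshold and was not recomputed in the alternative runs. In torpedo meristem NGA1 was at 40.4, 9.25 and 122. In torpedo cotyledon it was at 38.8 and 262 and in torpedo root at 151 and 67.6, so these captures overlapped. NGA1 is also among the measured cotyledon and lateral organ markers summed above. NGA2 differed between apical and basal by 1.39 (SE 0.78), SHI by 0.74 (SE 1.01), NGA3 by -0.47 (SE 0.67) and NGA4 by -0.81 (SE 0.78). The list's median was 0.74 against -0.14 for all probe sets.

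Of 19 auxin perception and response genes 3 were measured, and 0 of 3 passed between torpedo apical and basal by limma (0.091% of all probe sets did). The median was -0.17. Of 7 tryptophan synthesis genes only IGPS was measured, at 0.35 in that comparison. None of the listed auxin transport or conjugate hydrolysis genes had a probe set with a single gene name here.

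For each member the 5 named genes with the most similar pattern were taken by Pearson's r of log2 levels over 25 arrays, among 12318 other single-gene probe sets. For GH3.3 they were AT5G44680 (0.77), AT1G60070 (0.71), ALDH11A3 (0.70), AT1G80640 (0.69) and AT1G27285 (0.67), with r of 0.80 to 0.88 over the 9 group means. For UGT84B1 they were AT2G36550 (0.89), AT2G24550 (0.77), AT2G28970 (0.75), ARR15, a cytokinin response regulator gene (0.72), and AT4G25940 (0.71), with r of 0.84 to 0.96 over group means. For YUC4 they were AT3G02700 (0.75), AT1G34150 (0.74), AT3G62510 (0.68), AT5G05350 (0.65) and AT2G07708 (0.63), with r of 0.61 to 0.86. None of the 3 members was among the 5 closest genes of another member.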

How the data were processed

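The deposited intensities were made by the authors with MAS5 (linear scale), per the submitters' processing notes; no version, settings or genome build is given there. On all 27 arrays the mean of the deposited intensities after trimming 2% off each end is about 100. The unrounded files are the 9 of torpedo apical, basal and meristem, and the other 18 have 1 decimal.

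Groups came from the titles. Intensities were taken as log2(intensity + 10). Testing was limited to the 20890 probe sets, 64 controls excluded, that reached 50 on at least 2 of 25 arrays. limma 3.58.1 in R 4.3.3 was fitted over all 25 arrays (1 mean per group, eBayes with trend, 2-sided, Benjamini-Hochberg over all tested probe sets, threshold 0.05). The fit was tested on simulated data.

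Names came from GEO's platform annotation (13513 probe sets with 1 gene, 503 with several), updated through RefSeq TAIR10.1 (13436 matched). Members, lists and tests were chosen with earlier results of these data known. Lists of up to 6 measured genes are named in full where they are described, longer ones by their 4 brightest and any that passed; GH3.1 and UGT84B2 were added after their values were seen.

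No 2 arrays were identical. Alternatives were other normalization, pseudocounts, filters, no trend, array weights, only the groups compared, a replicate block, the contradicting arrays added and each array left out.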

Additional observations from a re-analysis of the deposited data

Results flagged for a closer look

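The arrays whose title and tissue description name opposite tissues held signal of all 3 genes that no comparison used. The array titled torpedo-cotyledon Rep2, described as root, had GH3.3 at 1425 and YUC4 at 279.8, with UGT84B1 at 12.9. The array titled torpedo-root Rep2, described as cotyledon, had UGT84B1 at 52.4 and YUC4 at 94.0, with GH3.3 at 10.8. Its median correlation with the other arrays was 0.340, against 0.625 for the former. These values were not used to assign either array. Groups of 2 or 3 arrays are too small for a test of outlying arrays, and no change of a member's upper-lower difference between stages passed.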

How the results depend on the processing

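51 values (3 genes in 17 tests) were recomputed in 1911 runs. The sign turned in 33 runs, none of them of the 5 called values. F values, the called one of GH3.3 among them, have no sign to turn. GH3.3 torpedo apical against basal (4.75) lost its call after quantile normalization (4.35, adjusted p = 0.0730), with a pseudocount of 1 (5.84), without the trend (4.75, adjusted p = 0.0528), with only its groups (4.75, adjusted p = 0.0901), with the replicate block (4.75, adjusted p = 0.107) and with the contradicting arrays by tissue description (4.75, adjusted p = 0.282). GH3.3 torpedo apical against heart cotyledon lost it with a pseudocount of 1 (6.00), by tissue description (5.12, adjusted p = 0.122) and without arrays of low correlation (5.32, adjusted p = 0.0583), and meristem against apical (-5.27) and the F test (5.02) by tissue description. UGT84B1 torpedo root against heart root lost it after median centring (3.46), with a pseudocount of 1 (4.95), a minimum of 100 (4.06), array weights (4.07), only its groups (4.06), the replicate block (4.16, adjusted p = 0.156) and by tissue description (2.79). Calls were gained with array weights for YUC4 apical against basal (3.05), the GH3.3 change from globular to torpedo (5.25) and the F tests of YUC4 (3.64) and UGT84B1 (3.49), with a pseudocount of 50 for UGT84B1 torpedo cotyledon against root (-2.55), and for GH3.3 there with the contradicting arrays by title (4.34, adjusted p = 0.0330), against 0.27 (adjusted p = 0.983) by tissue description. The cause was not tested.

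Signs turned for UGT84B1 torpedo apical against basal (0.032 after quantile normalization, 0.0051 with array weights), with array weights also for globular apical against basal (YUC4 0.090, GH3.3 -0.023), GH3.3 meristem against basal (0.038) and GH3.3 heart cotyledon against globular apical (-0.11; -0.14 without arrays of low correlation), by title for YUC4 torpedo against heart cotyledon (0.11), and for UGT84B1 meristem against cotyledon by tissue description (-0.27) and without arrays of low correlation (-0.16).

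Leaving out 1 array gave 3.89 to 5.70 for GH3.3 torpedo apical against basal (called in 13 of 25 runs; also lost without any 1 heart root array, globular apical 1 or 2, or globular basal 2 or 3), 4.55 to 5.50 against heart cotyledon (lost without torpedo apical 4, 5 or 6 or heart cotyledon 2 or 3) and -5.66 to -4.82 for meristem. UGT84B1 torpedo root against heart root was 3.76 to 4.35 (also lost without torpedo apical 4, 5 or 6, torpedo basal 4 or 6, or globular apical 2), and its F 2.29 to 7.46, called without globular basal 2. Where 1 array of a group was left, it was assumed to vary like the others. Ranges that crossed 0 were, for YUC4, -0.99 to 0.79 (globular), -1.99 to 0.094 (torpedo cotyledon against root), -1.53 to 0.55 (torpedo against heart cotyledon) and -0.14 to 1.94 (meristem against cotyledon); for GH3.3, -0.45 to 0.66 (globular), -0.44 to 0.68 (heart cotyledon against globular apical), -1.38 to 0.43 (meristem against basal) and -0.023 to 3.05 (torpedo against heart root); and for UGT84B1, -2.07 to 0.15 (globular), -0.38 to 0.19 (torpedo apical against basal), -0.51 to 0.23 (mean of stages), -2.19 to 0.033 (heart root against globular basal), -0.048 to 0.92 (heart cotyledon against globular apical), -0.31 to 1.91 (change from globular), -0.95 to 0.049 (torpedo against heart cotyledon) and -0.16 to 0.63 (meristem against cotyledon).

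Counts of called probe sets moved more: torpedo apical against basal 19 (1 with the replicate block, 196 with array weights), meristem against apical 44 (0 to 1070), torpedo apical against heart cotyledon 14 (3 to 737), torpedo root against heart root 106 (0 to 580), torpedo cotyledon against root 2 (0 to 109) and the F test 262 (54 to 3788). Replicate numbers were not taken as pairs, since they are not stated to pair arrays. Same-numbered pairs had correlations of deviations of -0.12 to 0.38, and pairs of unlike number -0.24 to 0.23. Same-numbered heart pairs were all positive, at 0.068 to 0.38. In no set of 3 pairs did every same-numbered pair exceed 0.1. Beyond the calls named above the block changed no call of a member. It was not fitted for meristem against apical or basal and torpedo apical or basal against the heart stage, whose groups share no number, or for the F test. Intensities carry no detection call, so no limit of detection is given.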
